A study of Mus musculus with 12 samples.

Results

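The genes described are those of complement, coagulation and fibrinolysis in the mouse jejunum. They were taken from a list of 34 genes: complement components, regulators and a receptor, coagulation factors and their inhibitors, the plasminogen activators with their receptor, and thrombospondin. A gene entered where the array had a probe set annotated to that gene alone, and its brightest probe set was used, which gave 28 of the 34 among 18820 genes in all. The other 6 were not analysed here: the probe sets of C4b and Cd59a are each shared with a paralogue, and C3, Cfd, C7 and Serpine2 had no probe set of their own among those used. C1ra and Cd55 had a probe set of their own and another shared with a near-identical copy, so part of their signal may come from that copy.

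The series asked how intestinal mucositis, the damage that chemotherapy does to the gut lining, differs in mice that lack TLR2, a receptor for bacterial lipoproteins. RNA of the proximal jejunum of 12 mice was profiled on Affymetrix arrays, 3 mice in each of 4 groups. Wild-type mice were C57BL6/J, and knockout mice were B6.129-Tlr2tm1Kir/J, which carry a targeted Tlr2 allele. In each genotype, 1 group was untreated, and the other received methotrexate, an antifolate that blocks DNA synthesis, by intraperitoneal injection at 40 mg per kg body weight per day for 4 days and was killed on day 7. The labels record neither a mock injection nor a sampling day for untreated mice, so the drug, the injections and the day cannot be told apart. The labels used here give no age and do not say that the genotypes were littermates, so background strain and genotype cannot be told apart either.

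Complement is a chain of plasma proteases that is started by C1q and its proteases on antibody or dying cells, by lectins on sugars, or by the alternative pathway, and that ends in opsonins, chemotactic peptides and a membrane pore. Coagulation starts when tissue factor meets plasma factor VII and ends in thrombin and fibrin, while endothelial anticoagulants restrain it. Plasmin, made from plasminogen by the tissue and urokinase activators, dissolves fibrin. Most circulating factors of these cascades come from the liver, whereas C1q is made mainly by macrophages and several anticoagulants by endothelium.

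Values are log2 signals, and replicates are given in the order 1, 2 and 3. Pearson correlations between arrays of 1 group were 0.967 to 0.992, and array medians lay between 4.37 and 4.56. The targeted gene Tlr2 read 4.37 to 4.65 in wild-type mice, 4.36 to 5.02 in untreated and 5.28 to 6.18 in treated knockout mice. It was thus not lower in arrays labelled knockout. The sources used here do not place the probe set with respect to the targeted exon, so it does not check the genotype, and the genotypes are those of the labels. The defining enterocyte markers Vil1 and Fabp1 were present in all arrays. The third, Lct, read 3.88, 3.45 and 3.64 in treated knockout mice, below the array medians, and 9.89 to 11.97 in the other arrays. The summed signal of 8 enterocyte markers was 10.59 to 13.14 in treated knockout mice, 14.72 to 14.92 in untreated knockout mice, 14.87 to 14.96 in untreated wild-type mice and 14.75 to 15.04 in treated wild-type mice. Pancreatic acinar genes were high in 7 arrays (mean of 7 genes 12.14 to 12.64) and low in 5 (3.45 to 5.01). The 5 were replicate 1 of every group and replicate 3 of the treated wild type.

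After methotrexate, all 3 measured genes of the plasminogen system, all 6 of thrombin sensing and anticoagulation and 4 of 5 of the classical complement pathway rose in knockout mice. Of the 4 procoagulant genes 1 rose, that of tissue factor. In wild-type mice a lone complement gene passed the test. In knockout mice 21 of the 28 genes rose and 0 fell at an adjusted p under 0.05 (limma, Benjamini-Hochberg), beside 34.8% of all genes called in either direction, 18.8% that rose and 16% that fell. The list was chosen with earlier results of these data known, so its share beside that of all genes is a description and no test. The 0 falls were also 0 at an unadjusted p under 0.05, and 1 with array weights (F5). The largest rise was that of Plat, the tissue plasminogen activator, followed by Plaur, the urokinase receptor, Thbs1, the matrix protein thrombospondin 1, and F3, tissue factor. The median change of the 28 genes was 1.44, beside -0.02 over all genes, and the 21 rises ran from 0.89 (Masp1) to 4.21 (Plat). In 20 of 28 genes, all 3 treated knockout arrays lay above the other 9 arrays, against 17.2% of all genes, and in 0 they all lay below, against 14.7%. In wild-type mice 1 of 28 genes passed, Cfhr2, which rose, beside 0.0425% of all genes that rose, 0.0319% that fell and 0.0744% in either direction. The median change in wild-type mice was -0.18, beside 0.00 over all genes.

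**Figure D1:**
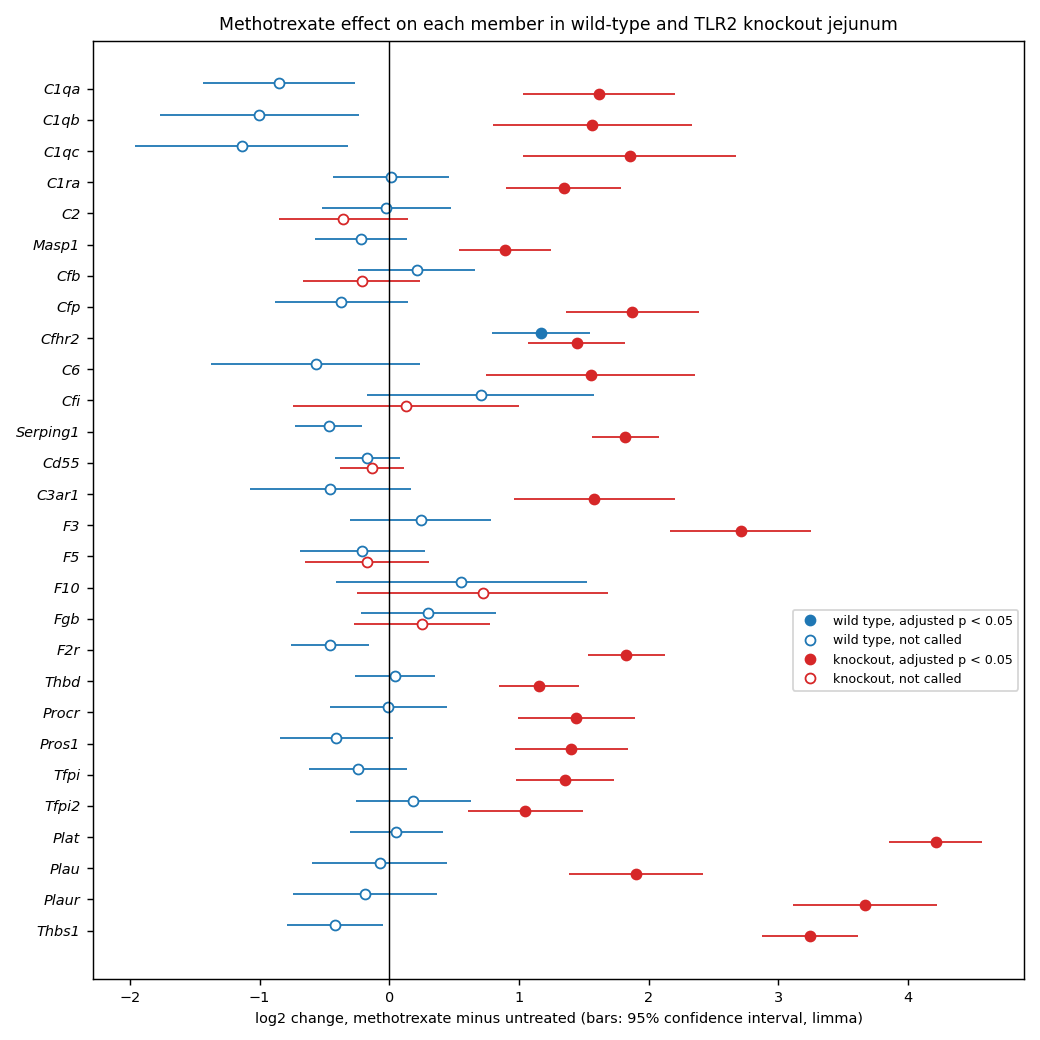
Log2 change with methotrexate (x axis, log2 units) of each of the 28 genes (y axis) in wild-type (blue) and knockout mice (red), with limma's 95% confidence intervals, 3 mice a group; filled points passed an adjusted p under 0.05. In knockout mice 21 intervals lie to the right of 0 with filled points, up to 4.21 for Plat, whereas in wild-type mice the only filled point is Cfhr2 at 1.17.

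The same bulk tissue also changed in its cell type markers, and in bulk samples more cells of a type and more RNA per cell cannot be told apart. In treated against untreated knockout mice, 8 of 8 enterocyte markers fell, 8 of 8 fibroblast markers rose, 7 of 8 endothelial markers rose, and 8 of 9 macrophage markers rose while Mertk, a phagocytic receptor kinase, fell. Of all genes 18.8% rose and 16% fell in that comparison. Of the mesothelial markers 3 of 6 rose and of neutrophil markers 3 of 7, or 5 without replicate 2 of the treated knockout group and 5 without its replicate 3. The summed neutrophil signal was 7.74 to 9.65 in treated knockout mice, 6.06 to 6.12 in untreated knockout mice, 6.14 to 6.26 in untreated wild-type mice and 6.12 to 6.26 in treated wild-type mice. In treated knockout mice the defining markers S100a8 (6.88, 3.20 and 3.16) and S100a9 (7.32, 3.59 and 3.39) stood out only in replicate 1. Mmp8 was high in all 3 arrays (7.51, 7.02 and 6.90). The part of these cell type markers in the changes of the cascade genes was not tested.

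**Figure D2:**
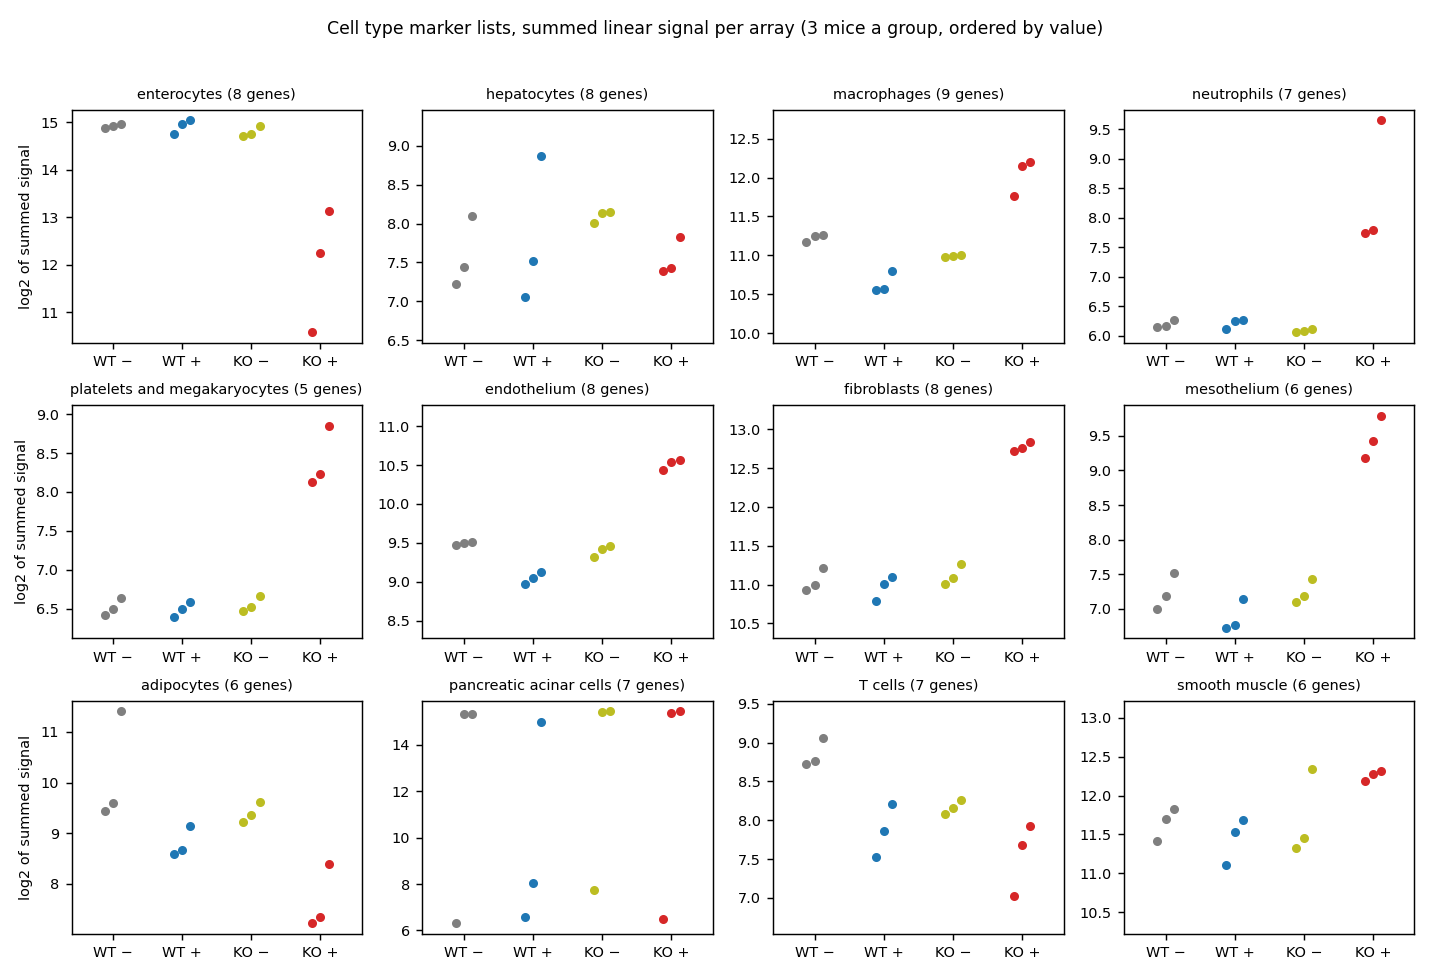
Log2 of the summed linear signal of each cell type marker list (y axis) in the 3 arrays of each group, ordered by value (x axis: WT wild type, KO knockout, − untreated, + methotrexate). In treated knockout mice the sums of macrophage, endothelial and fibroblast markers lie above those of the other groups and the enterocyte sum lies below them, while the pancreatic sum is high in some arrays of every group.

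The sequences around the starts of the listed genes were searched for motifs, and those of 5 genes that rose and held a match are shown. Whether a motif had a part in the rises was not tested. RefSeq windows of 300 bases, 250 before and 50 after the annotated start (GRCm38.p6), were found for 23 of the 34 genes and 18 of the 28 measured, 14 of which had risen in knockout mice and 4 had not. The motif TGANTCA, to which AP-1 factors bind and which reads the same on both strands apart from its middle base, occurred in 6 of the 14 and in 1 of the 4. It occurred in 7.81% of all 32851 windows and, with any window of a gene counted, in 8.97% of 27025 genes. The 6 were F3, F2r, Procr, Plaur, C3ar1 and Tfpi2, and the other was Fgb, a fibrinogen chain. The 250 bases before the start of 5 of them (all but Tfpi2) follow, 5′ to 3′ in the direction of transcription, with each TGANTCA match in capitals.
F3: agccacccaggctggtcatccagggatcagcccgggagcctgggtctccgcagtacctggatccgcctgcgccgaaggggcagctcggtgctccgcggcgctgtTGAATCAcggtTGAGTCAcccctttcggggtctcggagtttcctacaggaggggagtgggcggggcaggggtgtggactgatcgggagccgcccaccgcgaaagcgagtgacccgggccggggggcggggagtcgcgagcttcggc
F2r: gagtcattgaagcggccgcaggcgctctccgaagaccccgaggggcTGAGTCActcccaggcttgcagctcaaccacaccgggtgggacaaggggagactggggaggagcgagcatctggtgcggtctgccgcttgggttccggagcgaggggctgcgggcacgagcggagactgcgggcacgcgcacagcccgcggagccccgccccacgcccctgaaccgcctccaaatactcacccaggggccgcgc
Procr: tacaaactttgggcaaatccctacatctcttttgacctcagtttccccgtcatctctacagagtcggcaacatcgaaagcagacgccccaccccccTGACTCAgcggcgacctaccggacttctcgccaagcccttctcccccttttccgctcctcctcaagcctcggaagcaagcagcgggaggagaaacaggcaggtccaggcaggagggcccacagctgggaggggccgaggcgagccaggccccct
Plaur: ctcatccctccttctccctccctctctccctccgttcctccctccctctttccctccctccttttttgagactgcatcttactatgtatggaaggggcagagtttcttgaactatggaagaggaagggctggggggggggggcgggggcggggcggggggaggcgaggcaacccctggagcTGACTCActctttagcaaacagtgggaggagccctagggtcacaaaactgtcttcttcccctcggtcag
C3ar1: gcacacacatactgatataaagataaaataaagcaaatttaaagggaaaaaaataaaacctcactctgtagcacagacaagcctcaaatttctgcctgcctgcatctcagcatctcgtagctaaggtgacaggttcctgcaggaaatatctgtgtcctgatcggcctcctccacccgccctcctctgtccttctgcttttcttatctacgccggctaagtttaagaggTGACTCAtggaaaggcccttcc
The F3 stretch is chr3:121723287-121723536 on the plus strand, and its matches begin 146 and 135 bases before the start. The F2r stretch is chr13:95618467-95618716 on the minus strand with a match 204 bases before the start, and the Procr stretch is chr2:155750967-155751216 on the plus strand with a match at 154. For Plaur the stretch is chr7:24462233-24462482 on the plus strand with a match at 69, and for C3ar1 it is chr6:122856158-122856407 on the minus strand with a match at 22. Of the other motifs searched on both strands, the STAT motif TTCNNNGAA occurred in 3 of the 14 (C1ra, Cfhr2 and Pros1), in 1 of the 4 that had not risen (Fgb), in 8.30% of all windows and in 9.55% of genes. The NF-kB consensus occurred in 1 of the 14 (C1qc), in 0 of the 4, in 8.46% of windows and in 9.55% of genes. The interferon-stimulated response element occurred in 0 of the 14, in 0 of the 4, in 3.44% of windows and in 3.99% of genes. None of the 6 windows with TGANTCA held a match to the letters of these 3 motifs. Variants that depart from the searched letters were not counted. A match of letters is a description of the sequence and shows no binding.

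C1q, the recognition molecule of the classical pathway, is built of 3 chains from 3 genes, and all 3 rose in knockout mice. In wild-type mice their treated arrays lay below the untreated ones without passing the test. C1qa read 7.40, 7.68 and 7.33 in untreated and 6.28, 6.90 and 6.66 in treated wild-type mice, and 7.54, 7.10 and 7.09 in untreated and 8.21, 9.04 and 9.35 in treated knockout mice. Its treated knockout arrays lay above all others and its treated wild-type arrays below all others. C1qa rose by 1.62 ± 0.27 in knockout mice (adjusted p = 0.00057), and its change in wild-type mice was -0.85 ± 0.27 (adjusted p = 0.273), which did not pass. C1qb read 8.78, 8.71 and 8.83 in untreated and 7.04, 8.47 and 7.80 in treated wild-type mice, and 9.0, 8.70 and 8.70 in untreated and 9.63, 10.64 and 10.84 in treated knockout mice. It rose by 1.57 ± 0.35 in knockout mice (adjusted p = 0.00431), with a change of -1.002 ± 0.35 in wild-type mice. C1qc read 8.16, 8.32 and 8.26 in untreated and 6.36, 7.66 and 7.30 in treated wild-type mice, and 8.40, 8.06 and 7.74 in untreated and 9.08, 10.16 and 10.50 in treated knockout mice. Replicate 1 was the lowest of the treated arrays in both genotypes for all 3 chains. C1qc rose by 1.85 ± 0.37 in knockout mice (adjusted p = 0.00232), and its change in wild-type mice was -1.14 ± 0.37 (adjusted p = 0.295). The 3 genes are neighbours in the RefSeq gene order.

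The signal of macrophage markers moved with that of C1q: the sum of 9 markers was 11.76 to 12.20 in treated knockout mice, 10.98 to 11.004 in untreated knockout mice, 11.18 to 11.27 in untreated wild-type mice and 10.55 to 10.79 in treated wild-type mice. Of the defining macrophage markers, Cd68 rose by 2.08 ± 0.17, Csf1r by 1.33 ± 0.24 and Adgre1 by 0.98 ± 0.23 in knockout mice. In wild-type mice Csf1r changed by -1.13 ± 0.24 (adjusted p = 0.125). The part of the macrophage signal in the changes of C1q was not tested.

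Of the proteases of the classical and lectin pathways, C1ra and Masp1 rose in knockout mice and C2 did not. C1ra, which cleaves C1s, read 3.96, 4.13 and 4.28 in untreated and 3.87, 4.49 and 4.04 in treated wild-type mice, and 3.64, 3.88 and 4.32 in untreated and 5.13, 5.20 and 5.54 in treated knockout mice. All 3 treated knockout arrays lay above the other 9, and C1ra rose by 1.34 ± 0.20 (adjusted p = 0.000304). Masp1, a protease of the lectin pathway, read 2.96, 3.36 and 3.22 in untreated and 2.99, 3.05 and 2.86 in treated wild-type mice, and 3.19, 3.28 and 3.17 in untreated and 4.19, 4.39 and 3.72 in treated knockout mice. It was dim throughout and rose by 0.89 ± 0.16 in knockout mice (adjusted p = 0.00114), again with no overlap. C2, which supplies the protease of the classical C3 convertase, lay between 4.59 and 5.61 in treated and between 5.22 and 5.74 in untreated knockout mice. Its change was -0.35 ± 0.23 (adjusted p = 0.269), and without replicate 3 of the treated knockout group it was -0.61 (adjusted p = 0.0383).

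Among genes of the alternative pathway, properdin and Cfhr2 rose in knockout mice, while factor B did not. Cfp, which encodes properdin, the stabiliser of the alternative C3 convertase, read 5.87, 5.93 and 6.18 in untreated and 5.76, 5.78 and 5.33 in treated wild-type mice, and 6.29, 5.88 and 6.14 in untreated and 7.40, 8.13 and 8.41 in treated knockout mice. The treated knockout arrays were the only ones above 7, and Cfp rose by 1.87 ± 0.23 (adjusted p = 7.17e-05). Cfb, the protease of that convertase, read 8.39, 8.40 and 8.36 in untreated and 8.64, 8.45 and 8.68 in treated wild-type mice, and 8.89, 7.995 and 8.05 in untreated and 8.22, 7.88 and 8.20 in treated knockout mice. Its arrays overlapped between treated and untreated knockout mice, and the change was -0.21 ± 0.20 (adjusted p = 0.478). After treatment Cfb differed by -0.49 ± 0.20 between knockout and wild type (adjusted p = 0.0835). That difference passed with only the treated groups in the fit (adjusted p = 0.0276), with array weights (0.003) and without replicate 1 of the untreated knockout group (0.00511).

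Cfhr2, of a family of complement regulators, was the only one of the 28 genes that rose in both genotypes. Cfhr2 read 4.92, 4.78 and 4.97 in untreated and 5.64, 6.33 and 6.19 in treated wild-type mice, and 4.48, 4.59 and 4.66 in untreated and 5.94, 5.86 and 6.27 in treated knockout mice. In each genotype all treated arrays lay above all untreated arrays, and the treated arrays of the genotypes overlapped. It rose by 1.17 ± 0.17 in wild-type mice (adjusted p = 0.0437) and by 1.44 ± 0.17 in knockout mice (adjusted p = 4.99e-05). The difference between these effects was 0.28 ± 0.24 (95% confidence interval -0.26 to 0.81, adjusted p = 0.501). The call in wild-type mice was close to the threshold. It was lost on leaving out replicate 1, 2 or 3 of the untreated wild type (adjusted p = 0.115, 0.27 and 0.12), and on leaving out either of replicates 2 and 3 of the treated wild type (0.122 and 0.127). The same happened without either of replicates 2 and 3 of the untreated knockout group (0.0868 and 0.0707) and without replicate 2 of the treated knockout group (0.0655). It was also lost with a trended robust variance (0.0512), quantile normalisation (0.059), median centring (0.0611), the replicate number as a block (0.0706) and only the compared groups in the fit (0.0756). A second, dimmer probe set of Cfhr2 changed by 0.12 ± 0.11 in wild-type and 0.24 ± 0.11 in knockout mice and did not pass, and the mean over its probe sets gave 0.65 in wild-type mice (adjusted p = 0.112) and 0.84 in knockout mice (adjusted p = 0.000428).

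C6, a component of the membrane attack complex, read 5.02, 5.14 and 5.18 in untreated and 4.07, 5.07 and 4.50 in treated wild-type mice, and 5.03, 5.10 and 4.69 in untreated and 5.48, 7.04 and 6.95 in treated knockout mice. Replicate 1 of the treated knockout group stood near the untreated arrays but above them, and C6 rose by 1.55 ± 0.37 (adjusted p = 0.00613). C3ar1, the receptor of the C3a peptide on myeloid cells, read 6.57, 6.89 and 6.90 in untreated and 5.75, 6.85 and 6.40 in treated wild-type mice, and 7.08, 6.42 and 6.39 in untreated and 7.90, 8.59 and 8.15 in treated knockout mice. It rose by 1.58 ± 0.28 in knockout mice (adjusted p = 0.001) with no overlap with the other groups.

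Of the 3 measured complement regulators, Serping1 rose in knockout mice. Serping1, the C1 inhibitor, which also restrains the contact system, read 9.0, 9.04 and 9.20 in untreated and 8.44, 8.71 and 8.68 in treated wild-type mice, and 9.05, 8.78 and 8.82 in untreated and 10.57, 10.75 and 10.79 in treated knockout mice. The groups were tight, with the treated wild-type arrays the lowest and the treated knockout arrays the highest. Serping1 rose by 1.82 ± 0.12 in knockout mice (adjusted p = 5.3e-07), and its change in wild-type mice was -0.47 ± 0.12 (adjusted p = 0.181). Cd55, decay-accelerating factor, which dissociates C3 convertases on the cell surface, read 6.89, 6.84 and 6.78 in untreated and 6.75, 6.55 and 6.70 in treated wild-type mice, and 7.28, 7.06 and 7.31 in untreated and 6.90, 7.23 and 7.11 in treated knockout mice. Every knockout array read above every wild-type array, with the closest pair at 6.89 and 6.90. Knockout minus wild type was 0.38 ± 0.11 in untreated mice (adjusted p = 0.751), which did not pass, and 0.41 ± 0.11 in treated mice (adjusted p = 0.0126), which did. The call in treated mice was lost without replicate 2 of the treated wild type (adjusted p = 0.0516) or replicate 2 of the treated knockout group (0.0575). Cfi, the protease that inactivates C3b, read 3.76, 4.86 and 5.11 in untreated and 4.72, 5.83 and 5.29 in treated wild-type mice, and 3.89, 4.67 and 4.88 in untreated and 5.08, 4.42 and 4.34 in treated knockout mice. Its spread within groups was wide, and its changes of 0.70 ± 0.40 in wild-type and 0.13 ± 0.40 in knockout mice did not pass.

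Of the 4 procoagulant genes, the trigger F3 rose in knockout mice, and F5, F10 and Fgb did not pass. F3, tissue factor, whose upstream sequence holds a pair of AP-1 motif matches, read 4.73, 5.32 and 5.62 in untreated and 5.54, 5.56 and 5.29 in treated wild-type mice, and 5.47, 5.31 and 5.43 in untreated and 7.56, 8.43 and 8.34 in treated knockout mice. The treated knockout arrays stood more than 1 log2 unit above the other 9, and F3 rose by 2.71 ± 0.25 (adjusted p = 6.68e-06), against 0.24 ± 0.25 in wild-type mice (95% confidence interval -0.30 to 0.79). F5, factor V, the cofactor of prothrombin activation, read 4.53, 3.97 and 3.89 in untreated and 3.95, 3.83 and 3.99 in treated wild-type mice, and 4.11, 4.09 and 4.34 in untreated and 4.52, 3.70 and 3.80 in treated knockout mice. F10, factor X, which cleaves prothrombin, read 3.60, 4.29 and 4.52 in untreated and 5.04, 4.69 and 4.33 in treated wild-type mice, and 4.17, 4.58 and 4.47 in untreated and 6.37, 4.58 and 4.43 in treated knockout mice. Replicate 1 of the treated knockout group stood apart at 6.37, while replicates 2 and 3 lay near the untreated arrays. Fgb, the fibrinogen beta chain, was dim and read 3.01, 2.68 and 2.66 in untreated and 2.75, 2.77 and 3.74 in treated wild-type mice, and 3.08, 2.74 and 2.61 in untreated and 3.09, 3.12 and 2.97 in treated knockout mice. In knockout mice the changes were -0.17 ± 0.22 for F5, 0.72 ± 0.44 for F10 and 0.25 ± 0.24 for Fgb. With array weights that of F5 was -0.39 (adjusted p = 0.0366), which passed.

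Hepatocyte markers, read because the liver makes most plasma factors, had a summed signal of 7.39 to 7.83 in treated knockout mice, 8.01 to 8.16 in untreated knockout mice, 7.23 to 8.10 in untreated wild-type mice and 7.06 to 8.87 in treated wild-type mice. Of 8 hepatocyte markers 1 rose in knockout mice (12.5%, beside 18.8% of all genes), Tat, a tyrosine-degrading enzyme. Albumin (Alb) changed by -1.32 ± 1.25 and fetuin A (Ahsg) by -0.26 ± 0.34 without passing. Without replicate 3 of the treated wild type 2 markers passed, 1 of them lower. Replicate 3 of the treated wild type, which held the highest Fgb signal, also held the highest Alb (8.16) and Ahsg (4.12) signals, whose part in the Fgb value was not tested.

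All 6 genes of thrombin sensing and anticoagulation rose in knockout mice, and in each the treated knockout arrays lay above the other 9. F2r, the thrombin receptor PAR1, read 7.33, 7.19 and 7.16 in untreated and 6.68, 6.79 and 6.84 in treated wild-type mice, and 7.32, 7.005 and 7.06 in untreated and 8.67, 9.13 and 9.08 in treated knockout mice. It rose by 1.83 ± 0.14 in knockout mice (adjusted p = 1.49e-06) and changed by -0.46 ± 0.14 in wild-type mice (adjusted p = 0.246). Tfpi, the inhibitor of tissue factor with factor VIIa, read 5.98, 5.86 and 5.91 in untreated and 5.66, 5.93 and 5.46 in treated wild-type mice, and 6.43, 5.75 and 5.84 in untreated and 7.35, 7.42 and 7.32 in treated knockout mice. It was the tightest of the 6 in treated knockout mice, and it rose by 1.36 ± 0.17 (adjusted p = 8.22e-05). Thbd, thrombomodulin, which turns thrombin towards activating protein C, read 6.06, 6.18 and 6.26 in untreated and 6.08, 6.29 and 6.26 in treated wild-type mice, and 6.39, 6.29 and 6.41 in untreated and 7.37, 7.31 and 7.87 in treated knockout mice. Thbd rose by 1.15 ± 0.14 (adjusted p = 6.3e-05). Procr, the endothelial receptor of protein C, read 4.88, 4.98 and 5.53 in untreated and 5.01, 5.33 and 5.03 in treated wild-type mice, and 5.13, 5.42 and 5.37 in untreated and 6.38, 6.78 and 7.09 in treated knockout mice. Procr rose by 1.44 ± 0.21 (adjusted p = 0.000203). Pros1, protein S, the cofactor of activated protein C, lay between 7.76 and 8.12 in treated knockout mice and between 6.20 and 7.08 in the other groups, and rose by 1.40 ± 0.20 (adjusted p = 0.00019). Tfpi2, a related inhibitor found in the matrix, lay between 5.32 and 6.21 in treated knockout mice and between 4.53 and 5.08 in the other groups, and rose by 1.05 ± 0.20 (adjusted p = 0.00174).

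Endothelial and fibroblast markers were also higher in these arrays. The sum of 8 endothelial markers was 10.44 to 10.57 in treated knockout mice, 9.32 to 9.46 in untreated knockout mice, 9.47 to 9.51 in untreated wild-type mice and 8.97 to 9.13 in treated wild-type mice. The defining endothelial markers Cdh5 and Pecam1 rose by 1.61 ± 0.11 and 1.35 ± 0.15 in knockout mice, while Kdr changed by 0.15 ± 0.16 (adjusted p = 0.528). The sum of 8 fibroblast markers was 12.72 to 12.83 in treated knockout mice, 11.01 to 11.26 in untreated knockout mice, 10.94 to 11.22 in untreated wild-type mice and 10.79 to 11.10 in treated wild-type mice. Their part in the rise of the anticoagulant and plasminogen genes was not tested.

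The plasminogen system held the largest rises. Plat read 5.29, 5.14 and 5.44 in untreated and 5.12, 5.61 and 5.30 in treated wild-type mice, and 5.62, 5.69 and 5.62 in untreated and 9.51, 10.01 and 10.04 in treated knockout mice. The untreated and treated wild-type arrays overlapped, and the treated knockout arrays stood more than 3 log2 units above every other array. Plat rose by 4.21 ± 0.16, or 18.6-fold, in knockout mice (adjusted p = 1.64e-08), and its change in wild-type mice was 0.05 ± 0.16 (95% confidence interval -0.30 to 0.41). Plaur, which holds urokinase at the cell surface, read 4.72, 4.88 and 4.81 in untreated and 4.56, 4.84 and 4.45 in treated wild-type mice, and 4.72, 4.63 and 5.18 in untreated and 7.86, 8.65 and 9.02 in treated knockout mice. It rose by 3.67 ± 0.25 in knockout mice (adjusted p = 8.46e-07), and its change in wild-type mice was -0.19 ± 0.25 (95% confidence interval -0.74 to 0.37). Plau, urokinase itself, read 5.59, 5.54 and 5.46 in untreated and 4.96, 5.60 and 5.81 in treated wild-type mice, and 6.13, 5.29 and 5.60 in untreated and 7.34, 7.64 and 7.74 in treated knockout mice. Plau rose by 1.90 ± 0.24 in knockout mice (adjusted p = 6.89e-05), less than its receptor on the log2 scale.

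Thbs1, which platelets, endothelium and stromal cells release and which activates TGF-beta, read 7.80, 7.55 and 7.61 in untreated and 7.19, 7.32 and 7.20 in treated wild-type mice, and 7.45, 7.56 and 8.05 in untreated and 10.77, 10.79 and 11.22 in treated knockout mice. The treated knockout arrays were all above 10 and no other array reached 9. It rose by 3.24 ± 0.17 in knockout mice (adjusted p = 1.07e-07) and changed by -0.42 ± 0.17 in wild-type mice (95% confidence interval -0.79 to -0.05, adjusted p = 0.382). Of 5 platelet markers measured, the chemokine genes Pf4 and Ppbp rose by 2.84 ± 0.19 and 2.33 ± 0.27, whereas the platelet integrin Itga2b changed by 0.09 ± 0.15 and the platelet glycoprotein Gp9 by -0.31 ± 0.17, and neither passed. The platelet sum was 8.13 to 8.85 in treated knockout mice, 6.47 to 6.67 in untreated knockout mice, 6.42 to 6.64 in untreated wild-type mice and 6.39 to 6.59 in treated wild-type mice, and its part in the Thbs1 rise was not tested.

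**Figure D3:**
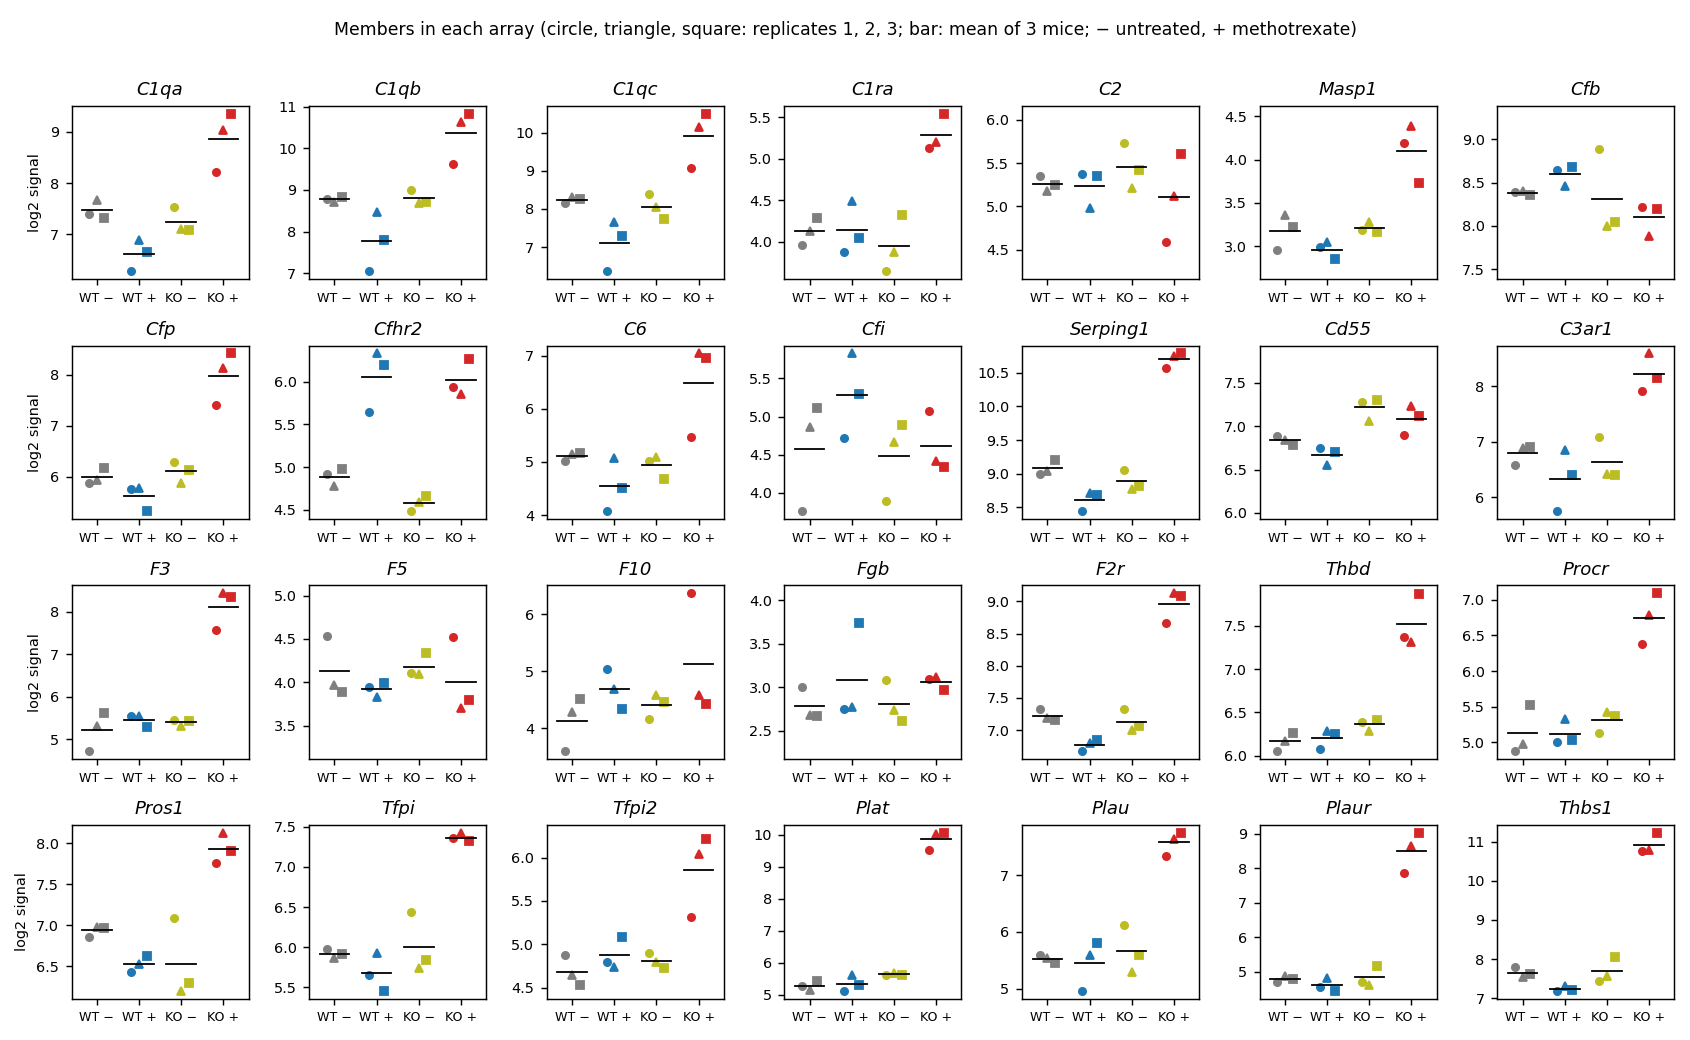
Log2 signal (y axis) of each of the 28 genes in every array of the 4 groups (x axis: WT wild type, KO knockout, − untreated, + methotrexate), with replicates 1, 2 and 3 as circle, triangle and square and a bar at the mean of 3 mice. Plat, Plaur, Thbs1 and F3 stand clear of the other groups in treated knockout mice, Cfhr2 is high in both treated groups, and F10 is high in replicate 1 of the treated knockout group.

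Within the treated knockout group the size of the rise varied between mice. Of the 21 genes that rose, replicate 1 gave the lowest of the 3 values for 17 and the highest for 0, whereas replicate 3 gave the highest for 14. Replicate 1 was also the treated knockout array without pancreatic RNA. Among arrays with pancreatic RNA all 21 genes were higher in treated than in untreated knockout mice, by 0.83 or more, and among arrays without it all 21 were higher, by 0.42 or more, there with 1 array a group. In all 21 genes every treated knockout array lay above every untreated one, so any split of these arrays gives that direction. The split therefore does not test the part of pancreatic RNA.

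In untreated mice the genotypes did not differ in any of the 28 genes at an adjusted p under 0.05, beside 0.0106% of all genes called, 0.00531% higher and 0.00531% lower. At an unadjusted p under 0.05 there was 1 gene, Cd55, beside 6.19% of all genes. With array weights 2 passed, Plat at 0.48 and Pros1 at -0.65. That setting called 558 of all genes between the untreated genotypes, against 2 without weights. The differences ran from -0.41 (Pros1) to 0.38 (Cd55), with a median of 0.03. That of Plat was 0.35 ± 0.16 (adjusted p = 0.786).

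After methotrexate 21 of 28 genes were higher in knockout than in wild-type mice and 0 were lower, beside 36.9% of all genes called, 20.2% higher and 16.8% lower. At an unadjusted p under 0.05 there was 1 lower gene, Cfb, and array weights gave 2 lower, Cfb and Cfi. These were the genes that rose in knockout mice without Cfhr2 (-0.04 ± 0.17, adjusted p = 0.91) and with Cd55. The largest differences were 4.51 ± 0.16 for Plat, 3.89 ± 0.25 for Plaur, 3.69 ± 0.17 for Thbs1, 2.81 ± 0.37 for C1qc and 2.65 ± 0.25 for F3. For C1qc, C1qb (2.60 ± 0.35) and C1qa (2.25 ± 0.27) the difference was larger than the rise in knockout mice, and the treated wild-type arrays lay below the untreated ones. The same held for Cfp, Serping1, F2r and Thbs1. For Plat and Plaur the difference was also the larger, though their wild-type arrays overlapped, and for F3 it was the smaller. All 21 differences were positive both among arrays with pancreatic RNA (0.62 or more) and among those without it (0.17 or more). In each of the 21 genes every treated knockout array lay above every treated wild-type array, so any split gives positive differences and does not test pancreatic RNA. The arrays with pancreatic RNA held 1 treated wild-type array and those without it 1 treated knockout array.

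The test of the difference between the drug's effects in the genotypes, the interaction, passed for 20 of 28 genes, all with the larger value in knockout mice, beside 23.8% of all genes called, 11.8% in that direction and 12% in the other. It shares its treated knockout arrays with the comparisons above and is no separate evidence. The interaction was 4.16 ± 0.23 for Plat and 2.28 ± 0.17 for Serping1, and it was smallest for Tfpi2 (0.86 ± 0.29, adjusted p = 0.0492). That of Tfpi2 did not pass on leaving out any of replicates 1, 2 and 3 of either untreated group (adjusted p = 0.0567 to 0.108). The same held for replicates 1 and 2 of the treated wild type (0.101 and 0.102) and for replicates 2 and 3 of the treated knockout group (0.114 and 0.104). Nor did it pass with a trended robust variance (0.0516), pancreatic RNA as a block (0.0603), median centring (0.0646), the replicate number as a block (0.0674) or quantile normalisation (0.0907).

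In wild-type mice 9 of the 28 genes had every treated array below every untreated array, beside 9.18% of all genes, and 2, Cfb and Cfhr2, had every treated array above, beside 13.5%. The 9 were C1qa, C1qb, C1qc, Cfp, Serping1, Cd55, F2r, Pros1 and Thbs1, and none of them passed an adjusted p under 0.05. With array weights, which lower the influence of arrays that deviate from their group, 6 genes were lower in wild-type mice: C1qa, C1qb, C1qc, Serping1, F2r and Pros1 (adjusted p = 0.00453 to 0.0473). The weights called 1819 of all genes in wild-type mice, against 14 without them. At an unadjusted p under 0.05 there were 7 of 28 genes, Cfhr2 among them, beside 11.7% of all genes.

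Beyond the 28 genes, a wider list of the same cascades was called at shares near those of all genes for methotrexate in knockout mice. It ran from dim genes, such as F9, F13b and C9 (means of 2.38, 2.47 and 2.54 over all arrays), to bright ones such as Lrp1 (9.78). A change in a dim gene can be missed. Of 62 other genes measured, 13 rose in knockout mice (21%, beside 18.8% of all genes) and 9 fell (14.5%, beside 16%). Their median change was -0.02, and 0 passed in wild-type mice, where 2 had an unadjusted p under 0.05 and array weights gave 6. Between treated genotypes 29% of the 62 were higher in knockout mice and 14.5% lower, beside 20.2% and 16.8% of all genes. In the interaction 21% were higher and 6.45% lower, beside 11.8% and 12% of all genes. Among 29 other complement genes 8 rose in knockout mice with methotrexate (27.6%, beside 18.8% of all genes) and 3 fell (10.3%, beside 16%). Itgam, the alpha chain of complement receptor 3, rose by 2.56 ± 0.23, C5ar1, the receptor of C5a, by 2.48 ± 0.23, Cd93, a C1q-related surface protein, by 1.97 ± 0.15, and C1s1, the partner protease of C1r, by 1.73 ± 0.16. C1s1 lies next to C1ra and Cd93 next to Thbd in the RefSeq gene order, and both genes of each pair rose, whereas C1rl, on the other side of C1ra, changed by -0.09 and did not pass.

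Among 25 other coagulation genes 4 rose in knockout mice (16%, beside 18.8% of all genes) and 5 fell (20%, beside 16%), shares near those of all genes. F13a1, the fibrin-crosslinking factor XIII chain, which macrophages and platelets hold, rose by 2.44 ± 0.32. Vwf, the endothelial von Willebrand factor, rose by 1.35 ± 0.11, and F2rl3, the thrombin receptor PAR4, by 1.03 ± 0.20. Proz, protein Z, the cofactor of an inhibitor of factor Xa, read 7.34, 7.45 and 7.26 in untreated and 7.43, 7.17 and 7.41 in treated wild-type mice, and 6.76, 7.09 and 6.89 in untreated and 3.55, 4.005 and 3.66 in treated knockout mice. It fell by 3.18 ± 0.14 in knockout mice (adjusted p = 3.74e-08), the largest fall in the wider list, beside the fall of all 8 enterocyte markers, whose part in it was not tested. Proz is the neighbour of F10, which changed by 0.72 and did not pass.

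Among 8 other fibrinolysis genes 1 rose, the scavenger receptor Lrp1 (0.99 ± 0.12), and 1 fell, the plasminogen receptor Plgrkt, by 1.30 ± 0.20. Each is 12.5% of the 8, beside 18.8% of all genes that rose and 16% that fell. Plg, plasminogen, changed by -0.27 ± 0.21 in knockout mice (adjusted p = 0.365). After treatment Plg was lower in knockout than in wild-type mice by 0.66 ± 0.21 (adjusted p = 0.0296), a call lost without replicate 3 of the treated wild type (adjusted p = 0.128) and without either of replicates 2 and 3 of the treated knockout group (0.0747 and 0.0738).

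**Figure D4:**
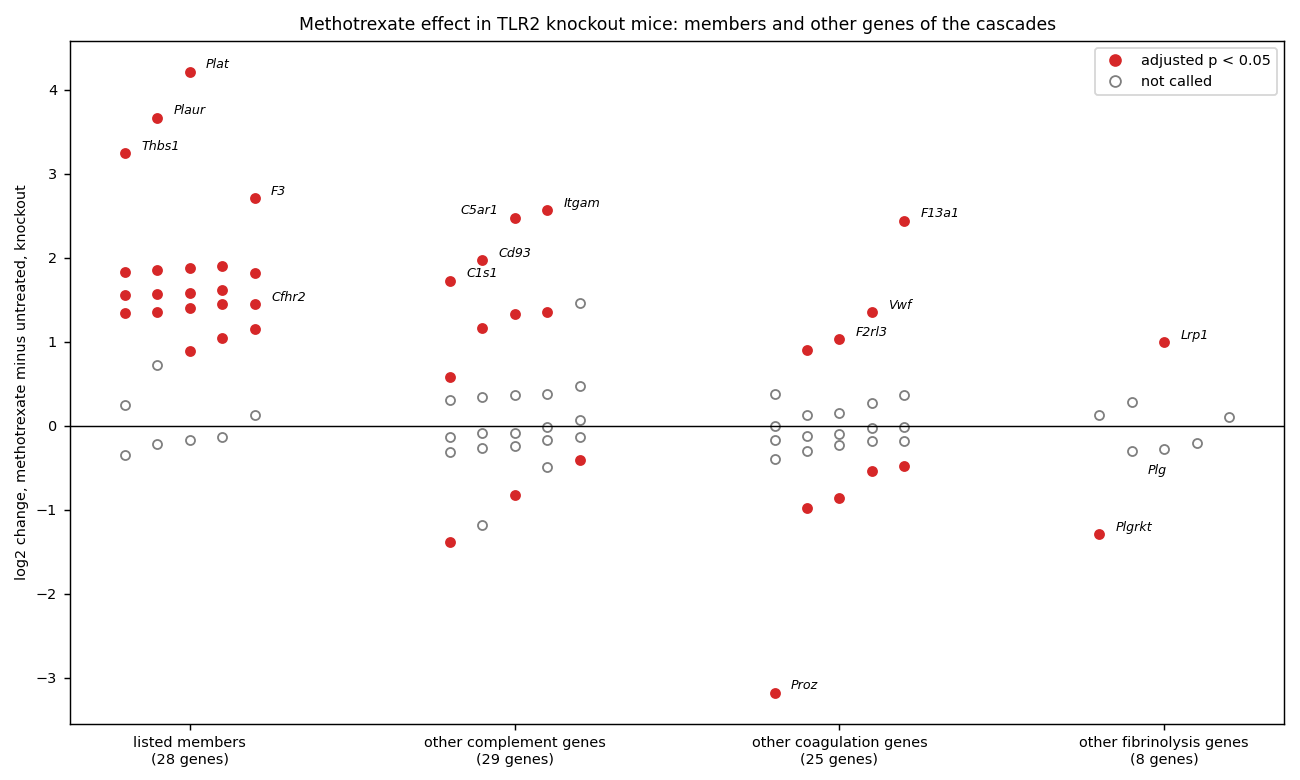
Log2 change with methotrexate in knockout mice (y axis) of the 28 listed genes and of 62 other genes of the cascades in 3 lists (x axis), with red points at an adjusted p under 0.05. The listed genes spread upward to 4.21 for Plat with no red point below 0, while the other lists hold red points on both sides of 0, down to -3.18 for Proz. All lists were chosen with earlier results of these data known.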

How the data were processed

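Jejunal RNA of 12 mice was hybridised to 1 array each. The authors deposited log2 signals per probe set made with RMA (no version given), a method that removes background, equalises arrays and combines probes, per the submitters' processing notes, and the array's genome build is not given in the sources used here. Values were used without further scaling, and the 3 mice per group limit the precision. Of 35556 probe sets, 21218 had 1 gene symbol, 1881 several and 12457 none in the platform annotation, and the brightest per gene was kept (18820 genes).

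All 12 arrays entered 1 limma fit (limma 3.58.1, R 4.3.3; lmFit, eBayes; a mean per group, 8 residual degrees of freedom). P-values were adjusted by Benjamini-Hochberg across the 18820 genes, and a gene rose or fell at an adjusted p under 0.05. Values after ± are standard errors. The fit was tested on simulated data. The p-values set differences against the spread between mice.

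The genes, lists and motifs were chosen with earlier results of these data known. All measured genes of the list are given, with every array for up to 4 per role by smallest p. Of the wider list, the 4 genes with the smallest p per sublist are named if called, and Plg. Marker lists covered enterocytes, hepatocytes, macrophages, neutrophils, platelets, endothelium, fibroblasts, mesothelium, adipocytes, pancreatic acinar cells, T cells and smooth muscle. Of those not described with the results, smooth muscle markers had 3 of 6 higher (1 to 5 over all settings), adipocyte markers 1 of 6 lower (1 to 3), T-cell markers 1 higher and 3 lower of 7 and acinar markers 0 of 7 called in treated knockout mice. Of all genes 18.8% were higher and 16% lower there. The 10 alternatives were averaged probe sets, no genes below the 25th percentile of signal, quantile normalisation, median centring, only the compared groups, array weights, a robust trended variance, a block for replicate number or for pancreatic RNA, and a minimum log2 change of 1, beside leaving out each array. Promoter windows came from RefSeq (GRCm38.p6), searched with Python 3.11.15.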

Additional observations from a re-analysis of the deposited data

Results flagged for a closer look

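For 20 of the 28 genes, the methotrexate effect differed between the genotypes by limma's interaction test over all genes at an adjusted p under 0.05. Each difference is the knockout effect less the wild-type effect, in log2 units, from 3 mice a group. In the plasminogen system it was 4.16 for Plat, 3.85 for Plaur and 1.98 for Plau, and for Thbs1 it was 3.66. In coagulation and its control it was 2.47 for F3, 2.28 for F2r, 1.81 for Pros1, 1.60 for Tfpi, 1.45 for Procr, 1.11 for Thbd and 0.86 for Tfpi2. Among complement components it was 2.99 for C1qc, 2.57 for C1qb, 2.47 for C1qa, 1.33 for C1ra, 1.11 for Masp1, 2.24 for Cfp and 2.12 for C6. For the regulator Serping1 it was 2.28 and for the receptor C3ar1 2.04. The effects compared share no arrays with each other, but the macrophage, endothelial and fibroblast marker sums differed in the same direction, and their part was not tested.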

How the results depend on the processing

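No called change reversed its direction under any setting run. The methotrexate count in wild-type mice, 1 of 28 genes, was 0 with probe sets of a gene averaged, quantile normalisation, median centring, a trended robust variance or only the compared groups in the fit, 7 with array weights, and 0 to 1 on leaving out 1 array. In knockout mice it was 20 to 22 over all settings, 20 where a log2 change of 1 was also required and 21 to 22 on leaving out 1 array, and the same 21 genes passed in every setting without a fold minimum. Between untreated genotypes the count was 0 except 2 with array weights, and 0 on leaving out any array. Between treated genotypes it was 19 to 23 (20 to 22 on leaving out 1 array), and 20 of the 21 genes kept their call in all settings without a fold minimum. For the interaction it was 19 to 20, also on leaving out 1 array, where Tfpi2 was lost. Array weights gave 6 wider-list genes in wild-type mice, against 0, 4 between untreated genotypes, against 0, and 29 in the interaction, against 17. Over all genes they called 1819 in wild-type mice, against 14, 558 between untreated genotypes, against 2, and 7474 in the interaction, against 4479. In knockout mice they called 9110, against 6549, and between treated genotypes 8962, against 6948. Neutrophil markers called in knockout mice were 1 to 5, against 3, and hepatocyte markers 1 to 2, against 1.

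Replicate numbers are shared between groups, and the labels do not say that they pair mice. Deviations from group means correlated at a median of 0.31 in 18 same-numbered pairs of arrays (over 0.1 in 15) and of -0.26 in 36 others (over 0.1 in 12). All 9 same-numbered pairs among the 3 groups other than the treated wild type were over 0.1 (0.24 to 0.67), and the 3 that were not all held replicate 3 of the treated wild type, down to -0.49. Every same-numbered pair passed 0.1 for methotrexate in knockout mice and between the untreated genotypes, but not for the comparisons that use treated wild-type mice. The same-numbered pairs over 0.1 each joined arrays alike in pancreatic RNA. So did the 12 differently numbered pairs over 0.1, such as untreated wild type 2 with untreated knockout 3 (0.48). These correlations therefore do not show that the numbers pair mice. With the replicate number as a block, 0 of 28 genes passed in wild-type mice, 21 in knockout mice, 0 between untreated and 21 between treated genotypes, and 19 in the interaction. The wild-type call of Cfhr2 and the interaction call of Tfpi2 were the ones lost among the 28 genes. With 3 mice a group, smaller changes can be missed.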
